A study of Rattus norvegicus with 3 samples.

Results

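Collagen hydroxylases and folding proteins of the endoplasmic reticulum were followed as 5 proteins in serum-starved rat fibroblasts with and without added Myc: the alpha-1 subunit of prolyl 4-hydroxylase, lysyl hydroxylase 2, protein disulfide isomerase A3, calreticulin and ribosome-binding protein 1. They were picked by entry name: P4H1, PLO2, PDA3, CRTC and RRB1 before the species suffix, plus the entry AK019964_1, whose peptide is identical to one listed under RRB1_MOUSE. That gave 9 of the 1052 entries in the tables and 138 of their 6783 peptide lines. Of these entries 5 were listed for the soluble, 4 for the chromatin and 3 for the mitochondrial fraction, and 11 of these 12 listings had a protein ratio. The names are a reading of Swiss-Prot style entry names from general knowledge.

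Rat1_Myc cells, Rat1 fibroblasts that carry Myc, were set against Rat1_vector cells, which carry the vector alone, with both kept without serum for 12 h. Rat1 is an established rat fibroblast line. What drives Myc, and whether the lines are clones, is not given in the sources used here. Myc protein carried the heavy and vector protein the light isotope-coded affinity tag (ICAT), a reagent that binds cysteine, so only peptides with a cysteine were measured. Each fraction was 1 mixture, with 2.5 mg of protein per label for the soluble and the chromatin-enriched fraction and 250 ug for the crude mitochondrial one. With 1 mixture and no swap of labels there is no replicate check and no test, an effect of the label cannot be told apart from one of the cells, and each ± is a deposited SD from within a mixture. It is that of the protein ratio or, for a peptide line, of that line, and for a ratio relative to the median it was divided by the median too.

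Collagen chains are made on ribosomes docked at the endoplasmic reticulum and are modified there before they fold. Prolyl 4-hydroxylase makes hydroxyproline, which holds the triple helix together, in a complex of alpha subunits with protein disulfide isomerase. Lysyl hydroxylase 2 acts on lysines at the chain ends, which sets the kind of crosslink formed outside the cell. Calreticulin and protein disulfide isomerase A3 work together on newly made glycoproteins, calreticulin as a lectin chaperone and the isomerase as a disulfide exchange enzyme, and ribosome-binding protein 1 spans the membrane of the rough endoplasmic reticulum.

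Over the whole series, 542 soluble, 364 chromatin and 201 mitochondrial entries had a ratio, with median ratios of Myc over vector of 1.34, 1.24 and 1.15 (log2 0.43, 0.31 and 0.21). Between 4.18% and 17.9% of the lines in a table carried a code for undetected peaks and count as not measured. Of 8 fibroblast markers looked for by entry name 6 were present, with CD44 and THY1 absent, and of 11 markers of epithelia, blood or serum 0 were present. Only peptides with a cysteine could be seen, so an absent marker does not show that its cells were absent. DSC1_HUMAN, read as the epithelial protein desmocollin 1, was not among these markers and had a chromatin ratio of 0.179 ± 0.076. The tables held 0 entries for Myc itself.

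A ratio counts here as changed when it was 1.5-fold or more from 1 in either direction and its distance from 1 on the log scale exceeded 2 deposited errors, an error being the SD over the ratio. In Myc cells prolyl 4-hydroxylase alpha-1 and protein disulfide isomerase A3 fell in the soluble fraction, and the human entry of ribosome-binding protein 1 fell in the chromatin fraction. Lysyl hydroxylase 2 rose in the soluble fraction, calreticulin in the chromatin fraction, and ribosome-binding protein 1 as entry AK019964_1 in the mitochondrial fraction. The 5 proteins thus did not move one way, with 3 of the 11 ratios higher and 3 lower. In the soluble fraction 2 of 4 ratios were lower and 1 higher, where 8.12% of all entries were lower, 30.6% higher and 38.7% either. In the chromatin fraction 1 of 4 was lower and 1 higher, where 7.42% of all entries were lower, 20.3% higher and 27.7% either. In the mitochondrial fraction 1 of 3 was higher, where 10.9% of all entries were, and 0 were lower, where 7.46% were, with 18.4% in either direction. Without the error rule 4 of the 11 ratios were below 1, 2 of 4 in the soluble, 2 of 4 in the chromatin and 0 of 3 in the mitochondrial fraction, where 28.8%, 31.0% and 34.8% of all entries were. The authors' centring is not known, so the ratios were also divided by the median of their fraction. Then 4 of the 11 were lower and 0 higher: the 3 that fell before, and prolyl 4-hydroxylase alpha-1 in the chromatin fraction. Relative to the median, 17.0% of soluble, 13.2% of chromatin and 11.4% of mitochondrial entries were lower, and 12.9%, 9.34% and 6.97% were higher. Protein amount per cell and the share of a protein that enters a fraction cannot be told apart from these ratios.

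**Figure D1:**
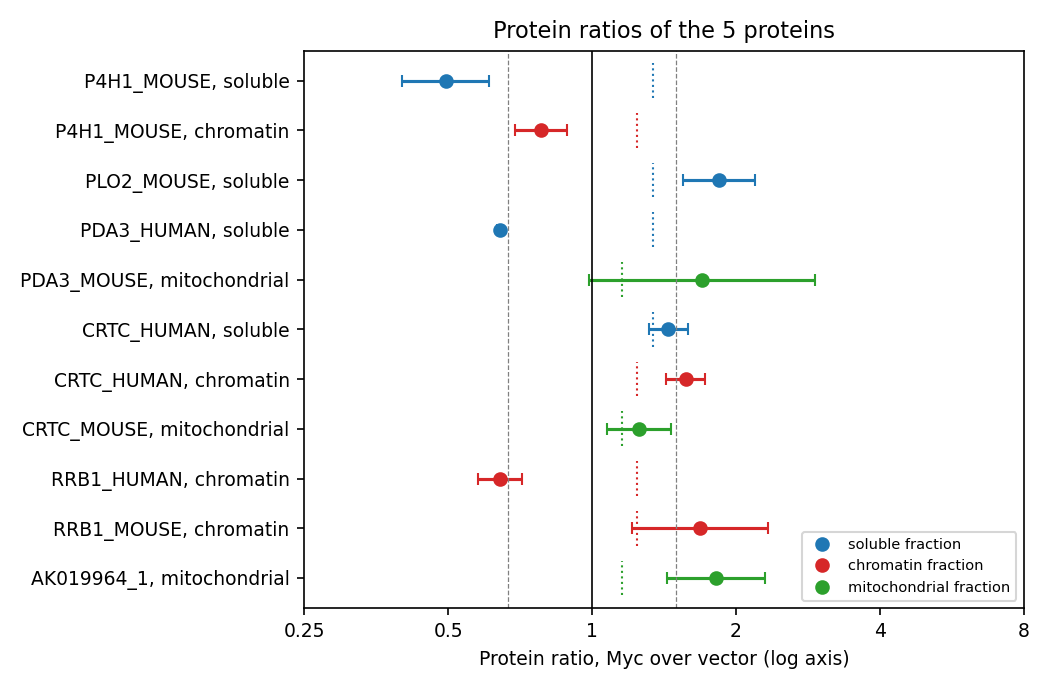
Protein ratio of Myc over vector on a log axis for each entry and fraction with a ratio, coloured by fraction; bars span 1 deposited error (SD over ratio) to each side on the log scale, dashed lines mark 1.5-fold, and dotted ticks mark the median of the fraction. The lowest point is P4H1_MOUSE in the soluble fraction at 0.494, and the bar of PDA3_MOUSE in the mitochondrial fraction crosses 1.

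Prolyl 4-hydroxylase alpha-1 was measured in 2 fractions, and every measured line was below 1. In the soluble fraction (P4H1_MOUSE) a peptide of 11 residues gave 0.518, 0.518, 0.636 and 0.636, and the peptide of 9 residues that ends the protein gave 0.429 ± 0.040. All 5 soluble lines lay below 1 over 1.5. The protein ratio was 0.494 ± 0.103 (log2 -1.02, 3.38 errors from 1, 2 peptides), the 25th lowest of 542, and 0.368 ± 0.077 relative to the median. In the chromatin fraction the same 9-residue peptide gave 0.581 ± 0.068, 0.713 ± 0.035 and 0.846 ± 0.035. A peptide of 13 residues, seen in the chromatin fraction and not in the soluble one, gave 8 measured lines from 0.550 to 0.949 with a median of 0.765. The chromatin protein ratio was 0.782 ± 0.097, at 1.98 errors from 1, so it missed the rule in both its parts, and it stood at 0.630 ± 0.078 relative to the median. Its 11 measured lines, with 9 distinct values, spanned 1.73-fold, against a median span of 3.90-fold over the 53 chromatin entries with at least 10 measured lines. A span tends to grow with the number of lines, by which this entry ranked 45th of the 53. The SD of its log2 ratios was 0.28, against a median of 0.47.

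The 2 fractions gave protein ratios 1.58-fold apart for this enzyme, at 1.89 combined errors, just short of the 2 that counted as a difference, and 1.71-fold apart, past that rule, relative to the medians. In the peptide found in both, the soluble line lay below all 3 chromatin lines and 1.66-fold below their median. Of the 100 peptides measured in both fractions 48.0% had medians at least 1.5-fold apart, so this gap is a common one. By protein ratio, 22.1% of the 86 pairs of entries of the same name differed between these fractions. The table for the mitochondrial fraction held no line for it, while the disulfide isomerase that forms the beta subunit of its complex stood there at 1.35 ± 0.222 (PDI_MOUSE, 1 line).

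Lysyl hydroxylase 2 was found in the soluble fraction (PLO2_MOUSE), with 3 lines that disagreed. Its 14-residue peptide gave 1.967 ± 0.051 and 0.691 ± 0.009, which lie 2.85-fold apart in 1 mixture and on opposite sides of 1. Its 8-residue peptide gave 1.852 ± 0.136. The protein ratio of 1.84 ± 0.318 (log2 0.88, 2 peptides) sits with the 2 high lines, and the median over peptides was 1.59. Divided by the median of its fraction the ratio no longer passed, at 1.37 ± 0.237, and 74.9% of soluble entries had a ratio this low or lower. The 2 collagen hydroxylases thus stood on opposite sides of 1 in the same mixture.

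**Figure D2:**
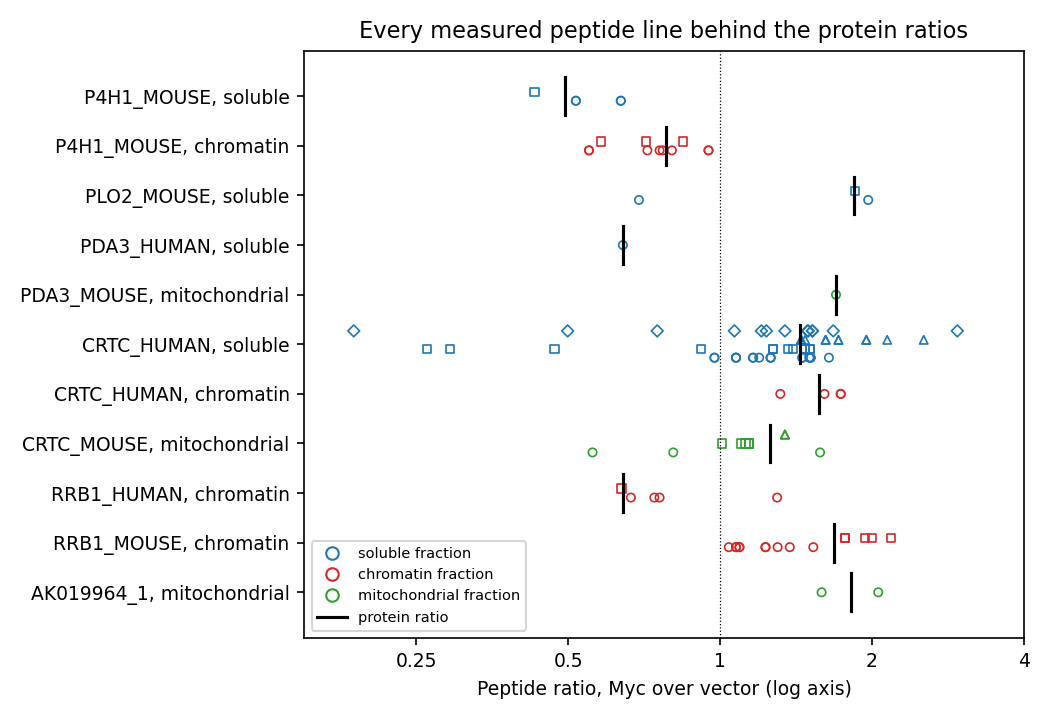
Every measured peptide line of the 5 proteins, as the ratio of Myc over vector on a log axis, with symbols telling apart the peptides within an entry, colours the fractions, and black bars the deposited protein ratio. Lines of P4H1_MOUSE lie below 1 in both fractions, those of PLO2_MOUSE lie on both sides, and those of CRTC_HUMAN in the soluble fraction run from 0.188 to 2.954.

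Protein disulfide isomerase A3 rested on 1 measured line in each of 2 fractions. In the soluble fraction (PDA3_HUMAN) a 12-residue peptide with 2 cysteines gave 0.642 ± 0.008, and the other 2 lines of it were not measured. The deposited error of 1.246% describes that line alone. In the mitochondrial fraction (PDA3_MOUSE) a 22-residue peptide that holds the shorter one and runs on past a missed cleavage gave 1.70 ± 0.924, which did not pass the rule. The ratios lay 2.64-fold apart at 1.79 combined errors, short of a difference by the rule, and 3.08-fold apart relative to the medians, which passed at 2.07 errors. Of 113 pairs of entries of the same name in these fractions, 16.8% differed. The chromatin table held no line for it.

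Calreticulin was the best covered, with 75 soluble, 4 chromatin and 10 mitochondrial lines, and its ratio lay above 1 in each fraction, as did 71.0% of soluble, 68.7% of chromatin and 65.2% of mitochondrial ratios. The soluble protein ratio was 1.44 ± 0.134 (CRTC_HUMAN). The chromatin ratio was 1.57 ± 0.148 (CRTC_HUMAN), and the mitochondrial one 1.254 ± 0.193 (CRTC_MOUSE). The chromatin value alone passed the rule, at 4.78 errors from 1, and it did not pass relative to the median, at 1.26 ± 0.119. Relative to their medians the soluble and mitochondrial values were 1.07 ± 0.0997 and 1.09 ± 0.167. No pair of fractions differed by the rule, with gaps of 1.09-fold to 1.251-fold between them. All 3 peptides under the mouse entry were also among the 4 under the human one. The 3 protein ratios still rest on different peptides, with 4 behind the soluble ratio, 1 behind the chromatin ratio and 3 behind the mitochondrial one.

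The peptide of 23 residues with its cysteine at position 1 was the one calreticulin peptide measured in all 3 fractions. It gave 12 soluble lines from 1.447 to 2.534 with a median of 1.67. In the chromatin fraction it gave 1.317, 1.611, 1.735 and 1.735, and in the mitochondrial fraction 1.009, 1.102, 1.124, 1.142 and 1.142. The mitochondrial lines lay below every line of the other 2 fractions. The medians of the soluble and mitochondrial lines were 1.48-fold apart, and those of chromatin and mitochondrial lines 1.49-fold, both short of 1.5-fold. Relative to the medians of the fractions these gaps were 1.27-fold and 1.38-fold. Of the other 2 peptides measured in both the soluble and the mitochondrial fraction, the 22-residue one also had the lower median in the mitochondrial lines. It was 0.808 there and 1.32 in the soluble lines, 1.63-fold apart with overlapping values. The 23-residue one with its cysteine at position 17 had a median of 1.345 in each. Both comparisons pool lines with different numbers of oxidised methionines. With 1 methionine oxidised, the 22-residue peptide had medians of 0.693 in the soluble and 0.6835 in the mitochondrial lines. With none oxidised, the 23-residue one had medians of 0.625 and 1.345. Of all peptides measured in both fractions of a pair, 56.0% of 166 and 33.7% of 83 were at least 1.5-fold apart.

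In the soluble fraction the calreticulin lines spread 15.7-fold, and the 5 lines at least 1.5-fold below 1 lay in 1 stretch of the protein. The 2 peptides without methionine gave 30 measured lines from 0.975 to 2.534, of which 28 were above 1. The 13-residue one of them had a median of 1.26 over 18 lines. The other 2 peptides cover 1 methionine-rich stretch, with and without an extra lysine at the end. They gave 25 measured lines from 0.188 to 2.954, of which 7 were below 1, and 18 lines that were not measured, against 2 not measured for the peptides without methionine. In the peptide of 22 residues the 6 lines with no oxidised methionine ran from 1.275 to 1.473, and the 6 with 1 oxidised ran from 0.263 to 1.51 with a median of 0.693. In the one of 23 residues it was the other way round: 4 lines with none oxidised ran from 0.188 to 1.677 with a median of 0.625, and 6 with 1 oxidised ran from 1.068 to 1.525. The low lines thus sat in a different oxidation form in each peptide. In the mitochondrial fraction the 22-residue peptide gave 0.559 and 0.808 with 1 methionine oxidised and 1.579 with 2, and the 23-residue one gave 1.345 on both its lines. Over the 81 soluble entries with at least 10 measured lines, the SD of log2 ratios for calreticulin (0.72) ranked 29th from the widest, against a median of 0.61.

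**Figure D3:**
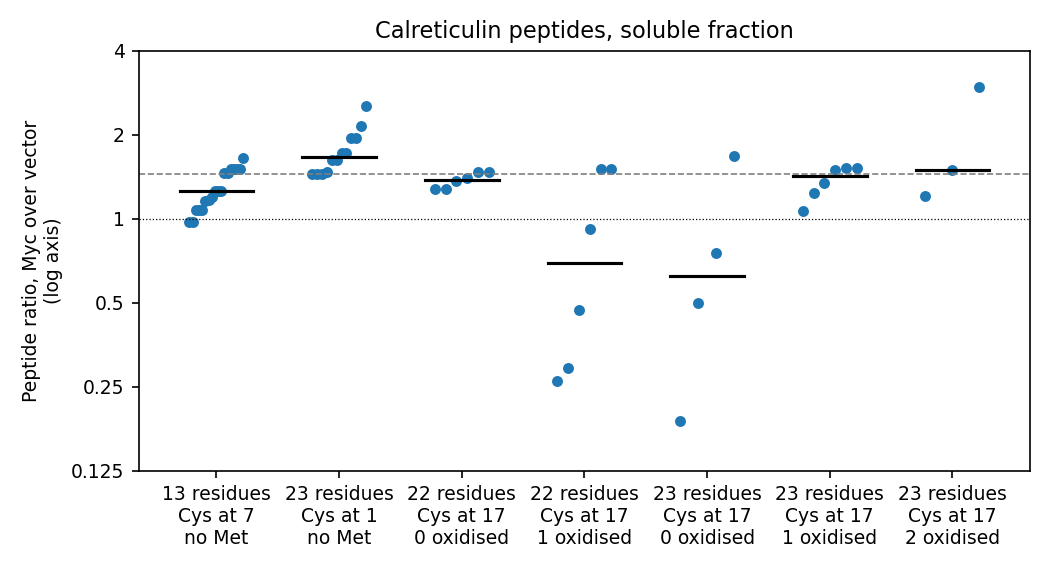
Soluble calreticulin lines as the ratio of Myc over vector on a log axis, grouped by peptide length, position of the cysteine and number of oxidised methionines; black bars are medians, the dashed line is the protein ratio of 1.44. The lines without methionine run from 0.975 to 2.534, and the values under 0.9 all come from the 2 peptides with the cysteine at position 17.

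Ribosome-binding protein 1 gave opposite values under its entries. The human entry in the chromatin fraction (RRB1_HUMAN) rested on 2 peptides of 14 residues. The first gave 0.666 ± 0.300, 0.741 ± 0.458, 0.759 ± 0.405 and 1.298 ± 0.107, and the second gave 0.638 ± 0.050. The line at 1.298 carries a question mark in the table, which the legend does not explain. The protein ratio was 0.643 ± 0.068 (4.18 errors from 1), which fell, also relative to the median at 0.518 ± 0.055. The median over its peptides was 0.694, which is short of 1.5-fold. In the soluble fraction the single line of this entry was not measured.

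The mouse entry in the same fraction (RRB1_MOUSE) had 15 measured lines, all above 1. Its 19-residue peptide with the cysteine at position 15 gave 10 lines from 1.041 to 1.531 with a median of 1.16. Its 26-residue peptide gave 5 lines from 1.767 to 2.182 with a median of 1.94, so the lines of these peptides did not overlap. The protein ratio was 1.68 ± 0.554, at 1.58 errors from 1, which did not pass. The human and mouse entries lay 2.62-fold and 2.78 combined errors apart, a difference by the rule, as did 25.0% of the 12 pairs of same-name entries in this fraction. They share 0 peptides, so the 2 entries were never compared on the same stretch of protein.

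In the mitochondrial fraction the 19-residue peptide alone was found, under AK019964_1, at 1.59 ± 0.310 and 2.059 ± 2.454. The protein ratio of 1.82 ± 0.430 passed the rule at 2.53 errors from 1, though not relative to the median at 1.58 ± 0.373. Both mitochondrial lines lay above all 10 chromatin lines of the same peptide, and the medians were 1.57-fold apart. The protein ratios of AK019964_1 and RRB1_MOUSE were 1.08-fold apart, and the chromatin ratio also takes in the higher 26-residue peptide. Against RRB1_HUMAN in the chromatin fraction, AK019964_1 was 2.83-fold apart at 4.02 combined errors, a difference that 11.1% of 54 pairs between these fractions showed.

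**Figure D4:**
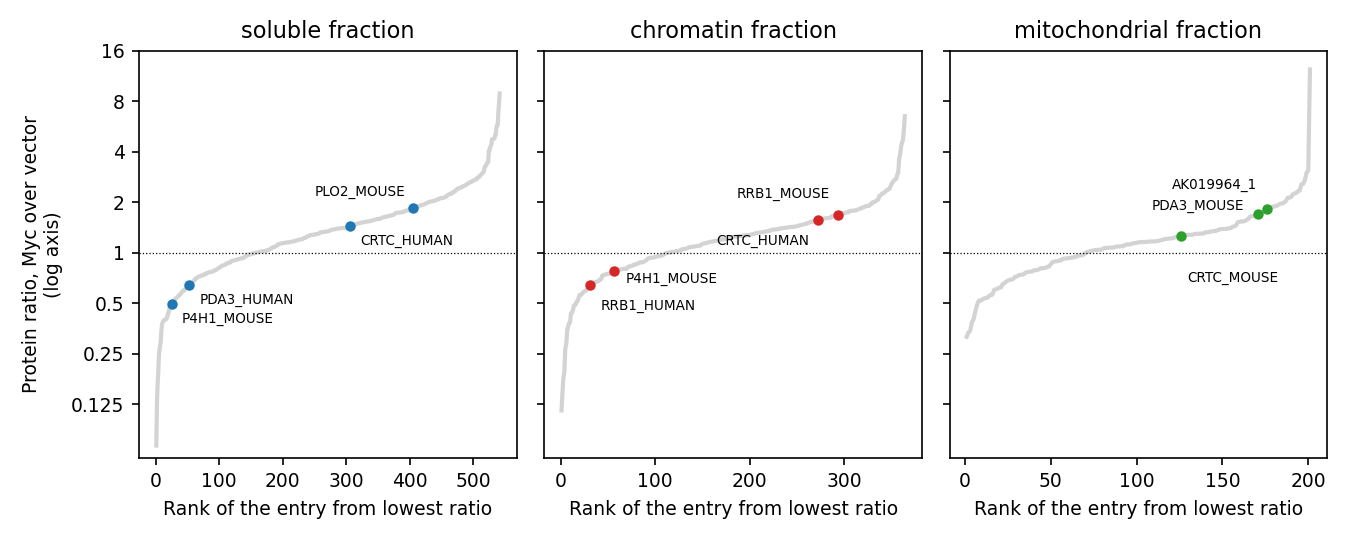
Protein ratio of Myc over vector on a log axis against rank from the lowest for every entry of each fraction (grey line), with the 5 proteins marked. In the soluble fraction P4H1_MOUSE (rank 25) and PDA3_HUMAN (rank 53) stand near the low end of 542 entries, while CRTC_HUMAN (rank 306) and PLO2_MOUSE (rank 406) lie above the middle.

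Other proteins that belong to this compartment or act at its membrane were sought under 67 names in 7 groups. Of these, 5 were found as entry names: PDI, ENPL, TERA, RIB1 and SRPB. Of the 9 ratios found through this list 1 rose and 0 fell. By fraction, 0 of 3 soluble, 1 of 2 chromatin and 0 of 4 mitochondrial ratios passed the rule. Of all entries 38.7%, 27.7% and 18.4% passed it in these fractions, in either direction. The search did not find every protein of the compartment. SE1L_HUMAN, a quality control protein that was not listed, fell in the chromatin fraction at 0.381 ± 0.008. G19P_HUMAN, the beta subunit of glucosidase II, fell in the soluble fraction at 0.539 ± 0.049. The list held this subunit as PRKCSH, which is not its entry name, so the search missed it and the 9 ratios leave it out. These 2 were picked after their values were seen, and each rests on 1 line. Proteins that the search missed were not surveyed, so the 2 do not show which way such proteins moved. The riser on the list was the beta subunit of the signal recognition particle receptor, which docks ribosomes at the membrane, at 1.53 ± 0.202 in the chromatin fraction (SRPB_MOUSE, 2 peptides), though not relative to the median. In the mitochondrial fraction it stood at 1.255 ± 0.060. Endoplasmin, the Hsp90 of this compartment, stood at 0.916 ± 0.256 in the soluble (ENPL_HUMAN) and 1.65 ± 0.491 in the mitochondrial fraction (ENPL_MOUSE). Ribophorin I, part of the enzyme that attaches sugar chains, stood at 1.94 ± 1.18 in the soluble and 1.38 ± 0.562 in the chromatin fraction (RIB1_HUMAN). The ATPase p97 is not a resident of this compartment but pulls misfolded proteins out of its membrane. It stood at 0.921 ± 0.314 in the soluble (TERA_HUMAN) and 2.00 ± 2.67 in the mitochondrial fraction (TERA_MOUSE).

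By fraction (soluble, chromatin, mitochondrial) the 4, 4 and 3 ratios of the 5 proteins had medians of 1.04, 1.18 and 1.70. The 3, 2 and 4 ratios found through the list had medians of 0.921, 1.45 and 1.501. All entries with a ratio had medians of 1.34, 1.24 and 1.15. Different proteins were measured in each fraction, so these medians do not follow the same proteins. Prolyl 4-hydroxylase alpha-1, the lowest of the 5 in the soluble fraction, had no mitochondrial ratio. Collagen chains, the substrates of both hydroxylases, were sought under 10 names. They had ratios in the chromatin fraction, where 0 of the 4 entries found passed the rule. Of all chromatin entries 27.7% passed it in either direction. Type I alpha-1 stood at 1.05 ± 0.085 (CA11_MOUSE) and type III alpha-1 at 1.14 ± 0.308 (CA13_HUMAN). Type I alpha-2 stood at 1.00 ± 0.122 (CA21_MOUSE) and 1.59 ± 1.05 (CA21_HUMAN). A chain that was not among these names, CA1B_MOUSE, read as type XI alpha-1, stood at 0.841 ± 0.063, short of 1.5-fold. In the mitochondrial fraction the single line under the 10 names, CA11_MOUSE, was not measured.

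**Figure D5:**
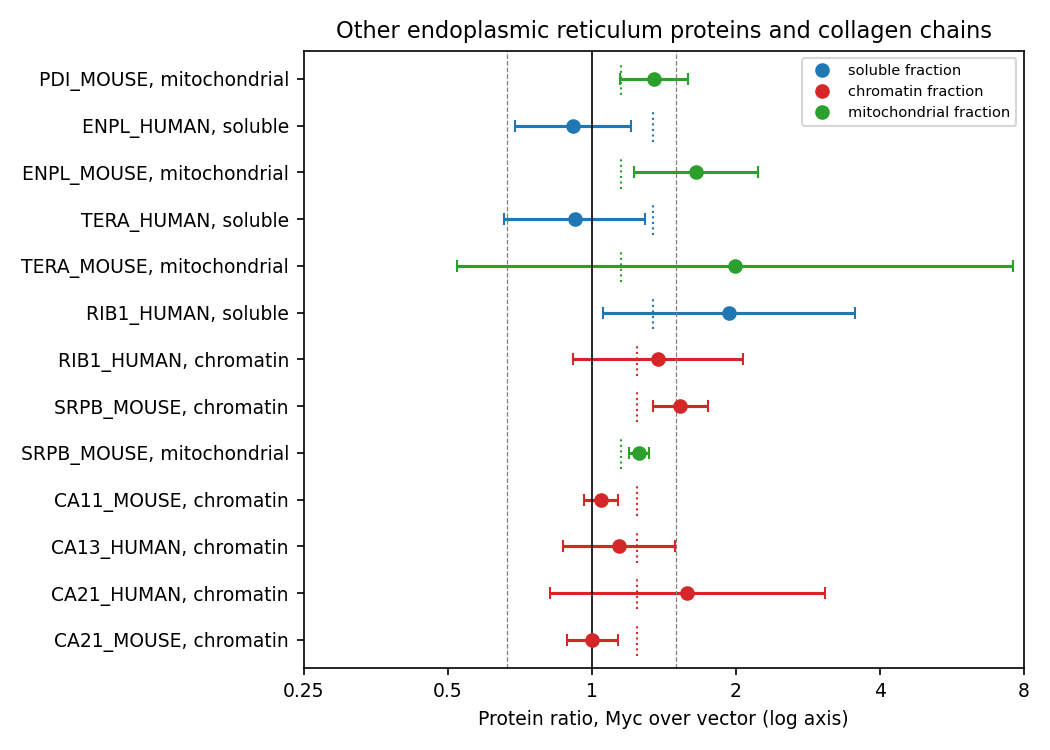
Protein ratio of Myc over vector on a log axis for the other endoplasmic reticulum entries and collagen chains found through the listed names. Bars, dashed lines and dotted ticks are as in the plot of the 5 proteins. SRPB_MOUSE in the chromatin fraction, at 1.53, is the 1 point beyond a dashed line whose error also passed the rule.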

How the data were processed

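Per the labels' protocols, ICAT-labelled tryptic peptides were separated by cation exchange, purified on biotin and measured by tandem mass spectrometry. Spectra were searched against rat, mouse and human proteins, so rat peptides stand under human or mouse entries. Per the deposited column legend, peptides have a PeptideProphet probability of at least 0.5, and the authors computed linear peptide and protein ratios of Myc over vector with ASAPRatio. The authors' ratio column was read as a score, since it mixes ratios with the codes 0, 9999 and -1 for peaks not detected. Versions and any centring are not given in the sources used here.

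The protein ratio, its SD and number of peptides were read from the packed text cell and were equal on every line of an entry. Calls used the rules given above, and differences between ratios combined both errors. The rules were tested on simulated data. The proteins and the list of other endoplasmic reticulum names were chosen with earlier results of these data known. All members and all listed names found were named. Alternatives tried were other folds and error rules, centring on the median, a stricter probability, medians over peptides, a minimum number of peptides and merged species entries. Peptides are described by length and cysteine position. Precision is limited by few lines per entry; ion counts are not given. Python 3.11.15, numpy 2.4.6, pandas 2.3.3 and matplotlib 3.10.9 were used.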

Additional observations from a re-analysis of the deposited data

Results flagged for a closer look

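Among the 5 proteins, the listed other endoplasmic reticulum proteins and the collagen chains, 3 had every soluble ratio below 1 and every mitochondrial ratio above 1. With 1 mixture per fraction the difference was not tested. Over all Swiss-Prot names with a ratio in both fractions, 12 of 95 (12.6%) showed this pattern, and 16 (16.8%) the opposite one. Protein disulfide isomerase A3 (PDA3) lay 2.64-fold apart at 1.79 combined errors. Endoplasmin (ENPL) lay 1.80-fold apart at 1.45 combined errors. The ATPase p97 (TERA) lay 2.17-fold apart at 0.561 combined errors. None of the 3 differences passed the rule as deposited. Calreticulin was the only other protein of these groups with a ratio in both fractions, and it lay above 1 in each (1.44 and 1.254).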

How the results depend on the processing

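Of 159 comparisons of 25 results with an alternative, 108 counted as the same and 0 as reversed. The same meant an equal call and a value within 1 deposited SD for ratios. For counts it meant a value within 1.5 times, and for gaps between ratios an equal call alone. Settings that changed only the fold or error rule left the values as they were, so no reversal could arise there. Nor could it for counts, or for gaps with species entries merged. Relative to the medians of the fractions, calls were lost for CRTC_HUMAN in chromatin (1.26), AK019964_1 (1.58) and PLO2_MOUSE (1.37), and gained for P4H1_MOUSE in chromatin (0.630). RRB1_HUMAN moved to 0.518, soluble P4H1_MOUSE to 0.368, PDA3_HUMAN to 0.478 and soluble CRTC_HUMAN to 1.07. The mitochondrial count of the 5 proteins and the chromatin count of other entries became 0, and the gaps between fractions of P4H1 (1.71-fold) and PDA3 (3.08-fold) passed. At 2-fold, calls were lost for CRTC_HUMAN in chromatin (1.57), RRB1_HUMAN (0.643), AK019964_1 (1.82), PDA3_HUMAN (0.642) and PLO2_MOUSE (1.84), which left 1 soluble, 0 chromatin and 0 mitochondrial calls among the 5 proteins and 0 among other chromatin entries. At the most lenient fold tried soluble CRTC_HUMAN passed (1.44), as did 1 other mitochondrial entry. By fold alone RRB1_MOUSE (1.68) and PDA3_MOUSE (1.70) passed, the mitochondrial count became 2, other entries counted 1 soluble and 2 mitochondrial, and the gaps of P4H1 (1.58-fold) and PDA3 (2.64-fold) passed. With 3 errors AK019964_1 (1.82) lost its call, which left 0 in that fraction. With medians over peptides, which carry no error, RRB1_HUMAN lost its call (0.694), RRB1_MOUSE (1.55) and PDA3_MOUSE (1.70) passed, the mitochondrial count became 2, and other entries counted 1 soluble and 0 chromatin. The same held at a probability of at least 0.9, where soluble CRTC_HUMAN moved to 1.28. Without its methionine peptides, an alternative chosen after seeing the data, soluble CRTC_HUMAN stood at 1.46. With at least 2 peptides, 1 chromatin and 0 mitochondrial calls were left. With species entries merged 1 chromatin call was left and ribosome-binding protein 1 lay 2.59-fold apart between the chromatin and mitochondrial fractions. On identical peptides by fold alone, the gaps of P4H1_MOUSE (1.66-fold) and of RRB1_MOUSE against AK019964_1 (1.57-fold) passed. For calreticulin, soluble against mitochondrial and with oxidation forms pooled, 1 of 3 shared peptides passed (1.63-fold) and the middle one did not (1.48-fold). Other causes were not tested. The human and mouse entries of ribosome-binding protein 1 share no peptide, so that comparison could not be made on identical peptides. No paired analysis was possible because each fraction holds 1 mixture.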

Other observations

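The deposited number of peptides behind a protein ratio counted oxidation forms and not sequences: calreticulin has 9 in the soluble table from 4 sequences. It equalled the number of measured forms for 522 of 542 soluble, 342 of 364 chromatin and 194 of 201 mitochondrial entries. Where forms and sequences differed in number it equalled the forms for 47 of 54, 23 of 30 and 21 of 23 entries. Lines of a peptide can repeat a ratio: the 55 measured soluble calreticulin lines hold 40 distinct values.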
